A study of Mus musculus with 27 samples.

Results

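Whole lung of wild-type mice was compared with wild-type embryonic fibroblasts grown in culture, across every gene of a table of raw RNA sequencing counts. The comparison holds 6 of the 27 libraries of the series, chosen by their labels: 3 of lung labelled WT and 3 of fibroblasts labelled WT from the second of 2 numbered fibroblast experiments. The series compared lungs and fibroblasts in which the gene Foxm1 was altered. Its product is a forkhead protein that switches on mitotic genes. Libraries labelled Het, a Foxm1 genotype, enter only where Het is named: 3 of lung and 3 of fibroblasts of experiment 2. All animals were of the strain C57BL/6. The lungs were whole organs from animals 10 days old. The fibroblasts were of early passage, growing without synchronisation, and taken at about 90% confluence. No allele or agent is named for either group, and the labels do not give the embryonic stage, the part of the embryo or the number of animals or cultures behind a library.

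A lung at this age is still adding alveoli, the thin-walled sacs where gas is exchanged. Its walls hold type 1 cells that form the exchange surface, type 2 cells that secrete surfactant, capillary endothelium, and mesenchymal cells that lay down elastin, while conducting airways are lined by ciliated and secretory cells. Embryonic fibroblasts are the cells that grow out of dissociated embryos on plastic, a mesenchymal population that divides and deposits collagen.

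The 2 groups differ at once in organ, age, cell mixture, growth in culture, rate of division and experiment, and the parts of these in any difference cannot be told apart. In bulk libraries, fewer cells of a type and less RNA per cell cannot be told apart either. The labels number the libraries without saying whether each came from its own animal or culture, so every p-value measures the spread between these libraries. With 3 against 3, an exact permutation test of a single value cannot go below p = 0.1.

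Totals were 42262244, 33499359 and 32581079 counts in the lung libraries and 38297041, 37915240 and 34713673 in the fibroblast libraries. Pearson correlations of log2 CPM ran from 0.9734 to 0.9887 between lungs, from 0.9882 to 0.9893 between fibroblasts, and from 0.7062 to 0.7357 across the groups. Values below are CPM, counts per 1000000 of the library size scaled by trimmed mean of M values, in the order of the library numbers. A difference is a log2 ratio of lung over fibroblasts, with a standard error back-calculated from the F statistic of its test. Of 15715 genes tested with edgeR's quasi-likelihood test, 12480 passed an adjusted p of 0.05, which is 79.4%. Lung was higher in 6740 (42.9%) and lower in 5740 (36.5%), and the median difference over all genes tested was 0.12. With library totals in place of the scaling, the median rose by 0.31 and 8179 genes were higher against 4327 lower. A call together with at least a 4-fold change was made for 3217 genes higher in lung (20.5%) and 1130 lower (7.19%), and members of a list are read against these shares.

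The libraries of a group were not alike in 3 respects. Lung library 1 held almost none of the RNA of squamous epithelium and skeletal muscle that the other lungs carried, and these genes are given by library below. Rn45s, the 45S pre-ribosomal RNA, took 4.82, 5.09 and 0.911% of the lung counts against 0.182 to 0.225% of the fibroblast counts. Lung library 2 and fibroblast library 3 carried the Y-linked Ddx3y at 1299 and 1892 counts and Xist at 107 and 10 counts, and the other 4 libraries the reverse (Ddx3y 0 to 5 counts, Xist 15834 to 31878 counts), so each group held 1 male and 2 female libraries by these genes.

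Per length of transcript, the secretory products of the airway and the type 2 cell led the lung, and translation, collagen and actin genes led the fibroblasts. The level here is counts per kilobase of merged exons, scaled to 1000000 per library as in TPM. Levels cover the 23684 of 24062 genes that matched GENCODE M21, and a gene without a match is not ranked. Scgb1a1, the secretoglobin of club cells, stood at 101544 ± 26240.5 (SD, n = 3) in lung and Sftpc, the surfactant protein C of type 2 cells, at 52506 ± 4775. Mfap4, a microfibril protein, followed at 7981 ± 957 against 284 ± 100.3 in fibroblasts, and Eln, which encodes elastin, at 6181 ± 909 against 358 ± 278. The fibroblasts were led by the elongation factor gene Eef1a1 at 14150.5 ± 208, the ribosomal Rplp1 at 12196 ± 153 and Col1a1, a chain of type I collagen, at 10112 ± 1517. Lgals1 (galectin 1), Acta2 (smooth muscle actin) and Actg1 (cytoplasmic actin) followed at 8821 ± 380.3, 8237 ± 726 and 7866 ± 508. Only Eef1a1, Rplp1 and Sparc, a collagen-binding glycoprotein, were among the 12 highest of both groups.

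The cell types that a fibroblast culture lacks gave the widest differences. All 16 genes of the type 2 list were higher in lung, with a median difference of 12.62 (12.41 at the bounds). Brackets here and below give the median with genes at 0 counts in a group set against a floor of 3 counts over that group. Other genes at 3 counts or fewer in a group enter it at their count ratio. Sftpc, at chr14:70520949-70524081 (GENCODE M21 on GRCm38, as for the genes below), stood at 14264, 14693 and 17535 CPM in lung against 0.0595, 0 and 0 in fibroblasts, where it had 2 counts in all. Slc34a2, the phosphate transporter of the type 2 cell, stood at 1304, 901 and 1124 CPM and had no count in fibroblasts, at least 37347-fold higher. Lamp3, of the lamellar bodies that store surfactant, was at least 11729-fold higher, and Sftpa1 at least 37631-fold. Members that fibroblasts also carried rose less: Abca3, the lipid pump of the lamellar body, by 3.38 ± 0.20, Lpcat1, which makes surfactant lipid, by 2.18 ± 0.18, and Etv5, a transcription factor, by 0.99 ± 0.09.

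Of the 12 type 1 genes, 11 were higher in lung and 1, Pdpn, did not pass (median 6.38). Ager, a receptor on the type 1 cell, stood at 2044, 2017 and 2305 CPM against 1.37, 2.18 and 0.995, a difference of 10.44 ± 0.29. Clic5, an intracellular chloride channel protein, rose by 9.57 ± 0.31 and Aqp5, a water channel, by 6.05 ± 0.19. Cldn18, a tight junction claudin, was at least 21591-fold higher. Pdpn, podoplanin, is also carried by fibroblasts: it stood at 73.1, 88.5 and 88.6 CPM in lung and 86.7, 96.4 and 83.5 in fibroblasts.

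Airway genes followed the same way, with all 12 club and secretory genes and all 18 ciliated genes higher. Scgb3a2, a second secretoglobin, stood at 926, 2069 and 1460.3 CPM and was at least 47957-fold higher. Cyp2f2, the cytochrome P450 of the club cell, stood at 589, 1030.1 and 928 CPM against 0, 0.201 and 0.0642. Cbr2, a carbonyl reductase, rose by 7.22 ± 0.53 to 1385, 1909.7 and 1725 CPM. Foxj1, the factor that sets the ciliated state, rose by 7.33 ± 0.30, and Dnah5, a dynein heavy chain of the ciliary arm, was at least 816-fold higher. Sec14l3 was the highest ciliated marker at 796, 865 and 842 CPM, with no count in fibroblasts. The general epithelial list gave 18 of 18 higher, among them the cytokeratin genes Krt8 (4.31 ± 0.36) and Krt18 (3.01 ± 0.22), which fibroblasts held at 13.8, 4.76 and 8.02 and 11.6, 6.60 and 12.4 CPM.

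Basal and squamous epithelium differed between the lungs themselves. Krt15 had 164 counts in lung library 1 against 11635 and 2798 in libraries 2 and 3, and Krt5 had 3 against 3749 and 741. Krt4 and Krt13, keratins of stratified squamous epithelium named after their values were seen, had 32 and 3 counts in library 1 against 29278 and 29926 in library 2 and 6395 and 6166 in library 3. No Krt4 or Krt13 count above 10 came from a fibroblast library. The basal list had 2 of 5 tested members higher, Krt15 and Aqp3. Krt15 lost its call without any 1 fibroblast library (10.96 to 11.04) and Aqp3 without fibroblast library 1 or 2 (6.74 and 7.67), and without lung library 2 their differences were 9.27 and 5.63. The list's sum ran from 6.71 to 388 CPM across the lungs.

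**Figure D1:**
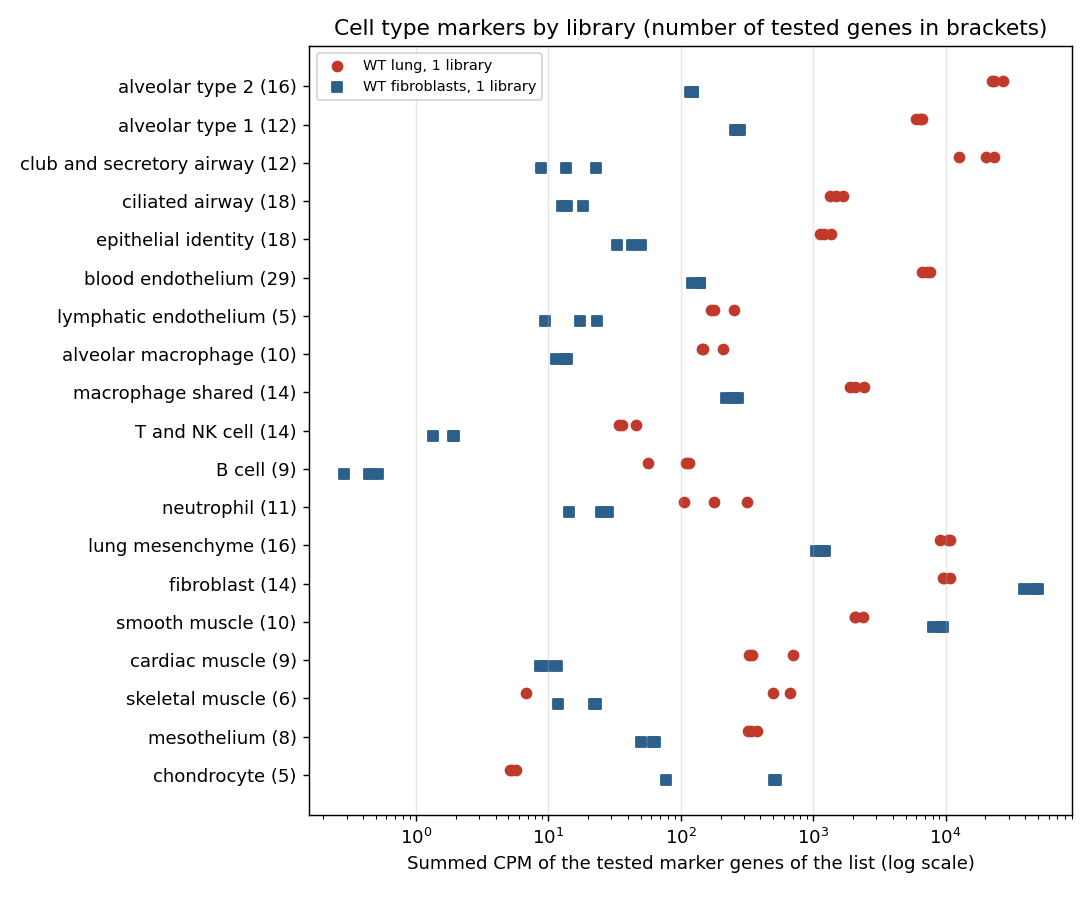
Summed CPM of each cell type marker list (log scale) in each of 3 WT lung libraries (circles) and 3 WT fibroblast libraries (squares), with the number of tested genes in brackets. The epithelial, endothelial and lymphocyte lists shown lie to the right in every lung. The fibroblast, smooth muscle and chondrocyte lists lie to the right in every culture. For skeletal muscle, 1 lung library stands at 6.79 CPM.

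Endothelial genes were higher as a block. All 29 genes of blood endothelium passed, with a median of 7.62 and sums of 6699 to 7620.0 CPM in lung against 122 to 141 in fibroblasts. Cdh5, the cadherin of endothelial junctions, stood at 674, 521 and 568 CPM against 0.178, 0.344 and 0.128, and Cldn5, the endothelial claudin, was at least 17935-fold higher. Car4, the carbonic anhydrase on the capillary surface, was at least 3447-fold higher, and Sox17, an endothelial transcription factor, at least 2897-fold. Kdr, the main VEGF receptor of endothelium, rose by 5.02 ± 0.39 and Eng, endoglin, by 3.46 ± 0.15 from 44.6, 33.7 and 30.7 CPM in fibroblasts.

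Lyve1, a hyaluronan receptor of lymphatic vessels and of some macrophages, stood at 185, 117 and 127 CPM against 0, 0.23 and 0.0321, and all 5 tested lymphatic genes were higher. Of 8 pericyte genes, 6 were higher, 1 lower and 1 not called. Notch3, the receptor of mural cells, rose by 2.28 ± 0.17 and Trpc6, a cation channel, by 4.74 ± 0.18, whereas Cspg4, the NG2 proteoglycan, fell by 2.21. Pdgfrb, the PDGF receptor of mural and mesenchymal cells, stood at 384, 332 and 357 CPM against 572, 416 and 371 and did not pass, but passed at -0.47 without fibroblast library 3, at -0.53 against the fibroblasts of experiment 1 and at -0.32 with a replicate block.

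Lymphocyte genes were close to 0 in the cultures, while macrophage genes were not. All 14 tested T and NK genes and all 9 B cell genes were higher in lung. The lung levels were low: 34.5 to 46.1 CPM summed over the T and NK list and 56.5 to 115 over the B cell list, against 1.35 to 1.93 and 0.287 to 0.513 in fibroblasts. Cd2, an adhesion receptor of the T cell, was at least 217-fold higher.

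The shared macrophage list summed to 1897 to 2436 CPM in lung and 218 to 269 in fibroblasts, with 11 of 14 higher and a median of 1.44. Lyz2, lysozyme, made up most of the lung sum at 1611, 1518 and 1949 CPM and rose by 4.40 ± 0.14. Csf1r, the receptor for macrophage growth, rose by 1.39 ± 0.13 from 24.5, 26.5 and 30.9 CPM in the cultures, and C1qb, a chain of complement C1q, by 0.87 ± 0.16 from 18, 12.5 and 16.9. Cd68, Cx3cr1 and Emr1, which encodes F4/80, did not pass, at 0.19, 0.10 and 0.03. Against the WT fibroblasts of experiment 1 all 14 of the list were higher, these 3 by 1.44, 1.30 and 0.91, and C1qb by 2.70. In the Het libraries all 14 were higher as well, with a median of 3.76. The alveolar macrophage list separated the groups further, with all 10 higher: Chil3, a chitinase-like protein, was at least 1644-fold higher and Itgax, the integrin chain CD11c, rose by 7.44 ± 0.29. Retnla, a resistin-like protein, was among the 15 highest differences of all well-expressed genes by the fitted value, at 648, 319 and 232 CPM and no count in fibroblasts.

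Of 11 tested neutrophil genes, 10 were higher, and Mmp9, gelatinase B, fell by 2.39. Mmp9 against the WT fibroblasts of experiment 1 was 0.06 and did not pass. S100a9, a calprotectin subunit, stood at 15, 15.7 and 22.5 CPM with no count in fibroblasts. Alas2, the erythroid enzyme of haem synthesis, had 4497, 3288 and 3717 counts in the lungs and 6 to 16 in the fibroblasts. The haemoglobin genes Hba-a1, Hba-a2, Hbb-bs and Hbb-bt were listed at 0 in every library, and these near-identical copies are uncertain in a table of this kind.

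Heart muscle genes were present in every lung library and skeletal muscle genes in 2. All 9 tested cardiac genes were higher, and Myh6, the atrial myosin heavy chain, had 3431, 6336 and 2145 counts against 0 to 4 in fibroblasts. Actc1, cardiac actin, rose by 8.79 ± 0.42. Myh8, the perinatal myosin of skeletal muscle, had 36 counts in lung library 1 and 6405 and 4456 in the others, and Ckm, muscle creatine kinase, had 122, 2186 and 1653. Acta1, skeletal actin, stood at 0.283, 246 and 188 CPM against 20.5, 9.50 and 21.3 and did not pass. Without lung library 1 its difference of 3.08 became 3.67 and passed (adjusted p = 8.01e-05), and without library 2 or 3 it was 2.47 and 2.85 and did not. The part of these heart, skeletal muscle and squamous transcripts in other differences was not tested.

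Mesenchymal genes divided between the groups. Of 16 lung mesenchyme genes, 15 were higher in lung (median 3.63), and of 14 general fibroblast genes 10 were lower (median -2.26). Tcf21, a factor of lung and other visceral mesenchyme, stood at 298, 252 and 277 CPM against 0.0892, 0.631 and 0.449, a difference of 9.45 ± 0.35. Foxf1, the forkhead factor of lung mesenchyme, rose by 5.94 ± 0.37, and its neighbouring long noncoding RNA Fendrr by 8.70 ± 0.21. Inmt, a methyltransferase, stood at 75.3, 111 and 173 CPM and was at least 3874-fold higher. Slit2, an axon guidance ligand, went against the list, at 283, 192 and 213 CPM against 459, 528 and 431.

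In the fibroblast list, Thy1, a surface glycoprotein of fibroblasts, fell by 6.62 from 1295, 767 and 901 CPM to 7.95, 10.3 and 12. S100a4, a calcium-binding protein, fell by 5.63 and Prrx1, a homeodomain factor of limb and skull mesenchyme, by 4.45. Vim, vimentin, stood at 1187, 1010.0 and 1105 CPM against 5245, 4849 and 5483. Dpt, dermatopontin, and Pi16, a marker of adventitial fibroblasts, went the other way, Dpt to 664, 574 and 638 CPM from 29.6, 13.9 and 8.09. Col2a1, the collagen of cartilage, varied among the cultures at 33.6, 455 and 446 CPM and fell by 7.40, and all 5 tested chondrocyte genes were lower in lung. Of 8 mesothelial genes 6 were higher and 2 lower, with Msln, mesothelin, the highest of them by level, up by 3.34 ± 0.20.

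Hox genes separated the groups by position. Hox genes lie in 4 clusters, and the number in the name follows the order along the cluster, with low numbers used toward the head and high numbers toward the tail and the limb tip. Of 13 tested genes numbered 1 to 5, 8 were higher in lung and 4 lower (median 1.70). All 16 genes numbered 9 to 13 were lower (median -8.35 (-6.89 at the bounds)), and their sum was 0.849 to 1.45 CPM in lung against 134 to 165 in fibroblasts.

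Hoxa5 stood at 61.7, 75.5 and 71.1 CPM in lung against 3.69, 4.50 and 4.24, a difference of 4.07 ± 0.12, and Hoxb5 rose by 3.07 ± 0.15. The 4 genes numbered 1 to 5 that fell were all of the c and d clusters: Hoxc4 by 3.81, Hoxc5 by 4.48, Hoxd3 by 4.94 (-4.29 without lung library 1) and Hoxd4 by 3.81. Exons of Hoxd3 and Hoxd4 overlap in the annotation, as do those of Hoxc5 and Hoxc10, so reads there cannot be assigned to 1 gene. Hoxd13 stood at 16.9, 35.9 and 29 CPM in fibroblasts with no count in lung, at least 1094-fold lower. Hoxa10, at 22.8, 19.9 and 25.5 CPM, was at least 908-fold lower, and Hoxc8, at 25.7, 15.9 and 14.1, at least 747-fold. Of the 8 genes numbered 6 to 8, 6 fell and Hoxb6 rose, by 0.55 ± 0.19. The call of Hoxb6 was lost without lung library 2 or 3 or fibroblast library 2 or 3 (0.43 to 0.57).

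**Figure D2:**
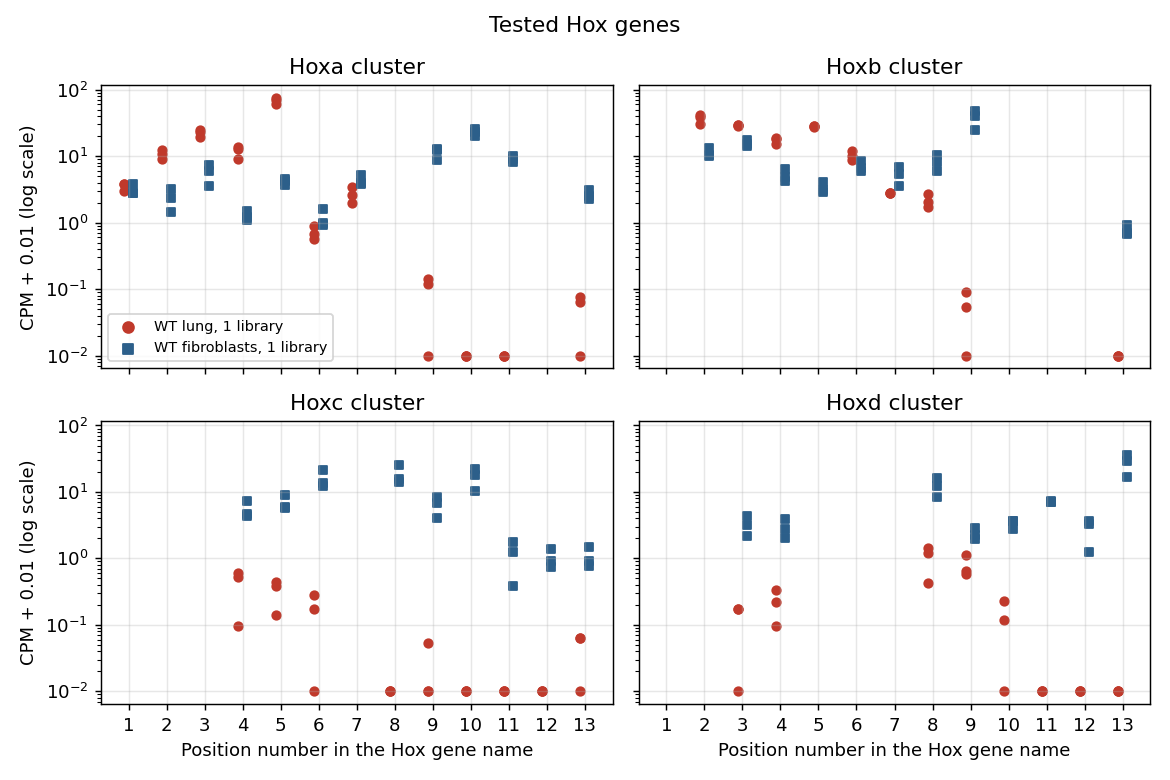
CPM plus 0.01 (log scale) of each tested Hox gene by the number in its name, in the 4 clusters, for 3 WT lung libraries (circles) and 3 WT fibroblast libraries (squares). In the a and b clusters lung lies above the fibroblasts at 2 to 5 and below them at 9 to 13, and in the c and d clusters it lies below them at every number tested.

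Other patterning factors followed the fibroblasts: of 37 tested, 29 were lower in lung and 5 higher. Tbx15, a T-box factor of trunk and limb mesenchyme, fell by 6.38 from 142, 132 and 127 CPM. Shox2, of the limb, stood at 21.8, 17.2 and 17.7 CPM in fibroblasts and 0 in lung, at least 758-fold lower, and En1, of the ventral limb ectoderm and dermis, at 22.6, 12.4 and 14.5 CPM, at least 660.4-fold lower. Meox2 and Irx3 were among those higher in lung, by 2.94 ± 0.33 and 1.95 ± 0.18. Counting the whole table, 289 genes had at least 1 CPM in every lung and 0 counts in every fibroblast library, and 25 the reverse, a short list that holds Hoxd13, Hoxa10, Shox2, Hoxc8, Hoxc10 and En1. Of 22 factors of lung and endoderm, 16 were higher, among them Nkx2-1, the factor that specifies lung epithelium, at 166, 177 and 186 CPM against 0.0892, 0.0861 and 0.0321.

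Matrix genes moved in both directions. Collagen fibres are built from types I, III and V with the help of hydroxylases and the chaperone HSP47, elastic fibres from elastin on a scaffold of fibrillin microfibrils, and basement membranes from laminins and type IV collagen. Of 22 fibrillar collagen and processing genes, 17 were lower in lung and 3 higher (median -1.85). Col1a1, at chr11:94936224-94953042, stood at 1658, 1396 and 1329 CPM against 22613, 19932 and 16696, a difference of -3.76 ± 0.15, and Col1a2 at 2607, 2249 and 2264 against 13448, 13149.5 and 10348 (-2.38 ± 0.13). Col3a1 stood at 4382, 3974 and 4017 CPM against 5424, 6589 and 4146 and did not pass (-0.39 ± 0.16, adjusted p = 0.053, but -0.55 and adjusted p = 0.00503 without fibroblast library 3, and past the threshold at -0.39 against the fibroblasts of experiment 1). Col11a1, a chain of the fine fibrils of cartilage and embryonic tissue, fell by 7.65 and Col5a3 by 4.93. Serpinh1, the gene of HSP47, fell by 1.85. Pcolce2, which enhances procollagen cleavage, and Adamts2, a procollagen protease, rose by 1.98 ± 0.15 and 1.37 ± 0.18.

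Elastic fibre genes moved both ways. Eln, at chr5:134702593-134747323, stood at 14666, 12259 and 15782 CPM against 592, 1591 and 379, a difference of 4.06 ± 0.56 (4.87 without fibroblast library 2, the highest of the cultures). Mfap4 stood at 4439.9, 3900.4 and 4753 CPM against 205, 183 and 97.7 (4.75 ± 0.30), and its exons overlap those of Mapk7 on the other strand. Ltbp4, which helps elastin deposit on microfibrils, rose by 2.53 ± 0.14 and Mfap2, a microfibril glycoprotein, by 1.57 ± 0.14. The crosslinking enzyme gene Lox fell by 3.67, from 2156, 2654 and 2053 CPM to 188, 159.5 and 190.3, and its relatives Loxl3 and Loxl4 by 3.81 and 4.48. Fbln2, a fibulin, fell by 5.0 and Fbn2, the fibrillin of embryonic microfibrils, by 3.85. In all, 6 of 20 elastic fibre genes were higher and 12 lower.

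In the basement membrane list, 12 of 22 were higher and 6 lower. Col4a3 and Col4a4, chains of the type IV network of lung and kidney, rose by 9.57 ± 0.23 and 8.04 ± 0.36, with Col4a3 at 307, 232 and 266 CPM against 0.238, 0.516 and 0.289. The common chain gene Col4a1 stood at 2909, 2046 and 2381 CPM against 2019, 1835 and 1949, a difference of 0.34 ± 0.13 whose call was lost without any 1 library other than lung library 2 (0.19 to 0.36) and against the fibroblasts of experiment 1 (0.28), and Col4a2 did not pass. Lama3 and Lamb3, chains of the epithelial laminin 332, stood at 181, 114 and 125 and 152, 114 and 129 CPM in lung against 0.386, 0.889 and 0.321 and 0.208, 1.15 and 0.321. Npnt, nephronectin, a ligand of integrin alpha 8, rose by 4.43 ± 0.17 to 1785, 1387 and 1679 CPM. Hspg2 (perlecan) and Nid2 (nidogen 2) fell by 2.28 and 2.26, from 2319, 1542 and 1889.7 and 168, 369 and 218 CPM.

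**Figure D3:**
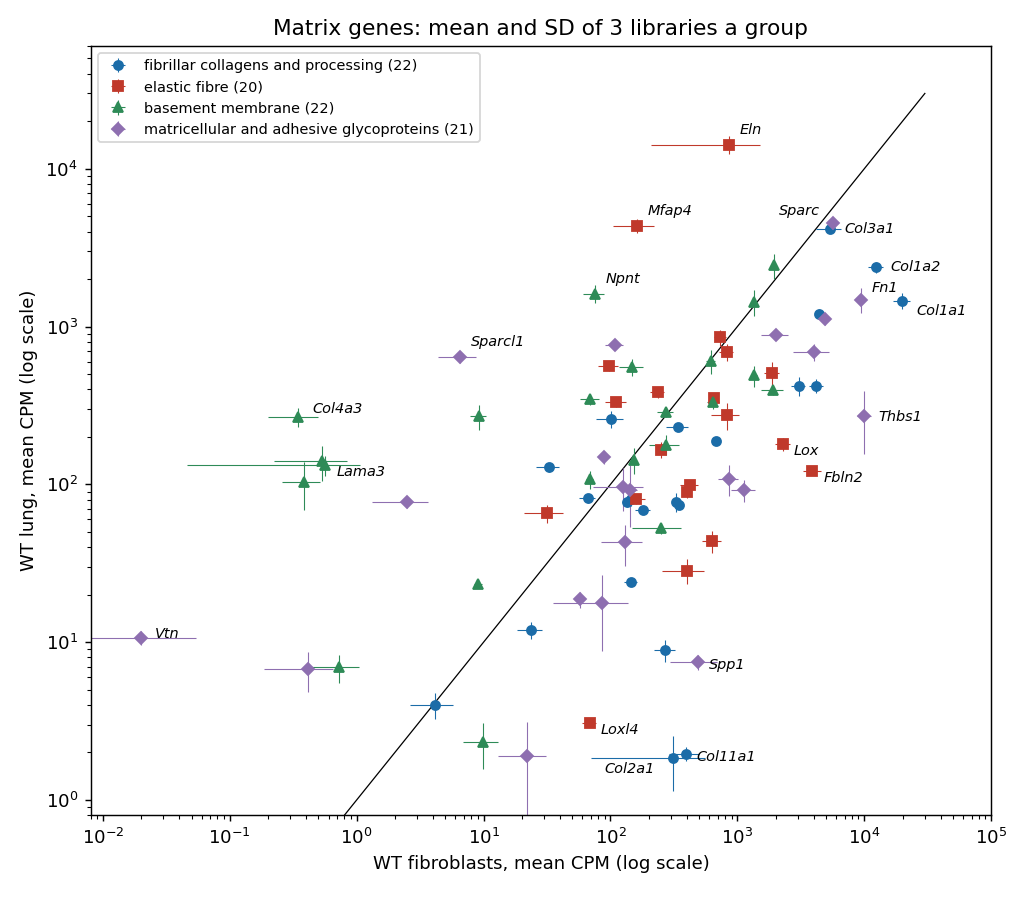
Mean CPM in WT lung against mean CPM in WT fibroblasts (both log scales) for 4 lists of matrix genes, with bars of 1 SD over 3 libraries a group and a diagonal of equal level. Eln, Mfap4, Npnt, Sparcl1, Col4a3 and Lama3 lie above the diagonal, Col1a1, Fn1, Thbs1, Fbln2, Lox and Col11a1 below it, and Sparc and Col3a1 close to it.

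Adhesive glycoproteins were mostly lower in lung, 13 of 21. Thbs1, thrombospondin 1, stood at 11129.7, 8733 and 10165 CPM in fibroblasts and 406, 198 and 211 in lung, and Fn1, fibronectin, at 9679, 9064 and 9445 and 1727, 1194 and 1524. Spp1, osteopontin, fell by 6.04. Sparcl1, a relative of Sparc, rose by 6.61 ± 0.26 and Tnxb, tenascin X, by 4.95 ± 0.29. Sparc itself stood at 4796, 4181 and 4692 CPM against 5964, 5987 and 5033. Its call as lower was lost against the WT fibroblasts of experiment 1 (0.19). It was also lost without lung library 2 or 3 or fibroblast library 1 or 2 (-0.33 to -0.25). Timp1, an inhibitor of matrix metalloproteinases, fell by 5.55. Among integrins, Itga11 and Itga5, the receptor chains for collagen and fibronectin, fell by 6.15 and 2.59. Itgb6, the epithelial chain that activates TGF-beta, had 4 counts in the fibroblasts and stood at 61.4, 70.4 and 79.4 CPM in lung. Of 22 junction genes 17 were higher, while Cdh2, N-cadherin, fell by 2.21, Cdh3 by 4.74 and Cdh11 by 1.16.

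The actin cytoskeleton was lower in lung. Serum response factor, with its MRTF partners, drives actin and focal adhesion genes when monomeric actin falls. Of 25 genes listed for this factor, its partners and their targets, 22 were lower and 2 higher (median -1.43). Acta2 stood at 472, 576 and 507 CPM in lung against 5884, 4766 and 5517 in fibroblasts, a difference of -3.38 ± 0.12, and Actg1 at 2261, 1949.6 and 1990.3 against 5974, 5953 and 6744 (-1.59 ± 0.10). Actn1, alpha-actinin 1, fell by 3.11, Myh9, nonmuscle myosin IIA, by 2.49 and Flna, filamin A, by 1.99. Fhl1, a LIM protein of muscle, went the other way, from 266, 264 and 396 CPM to 1682, 1543 and 1724 (2.42 ± 0.17). Within smooth muscle the genes parted: Acta2, Tagln, Actg2 and Lmod1 were lower, and Myh11, smooth muscle myosin, Mylk, its kinase, and Des, desmin, higher by 1.69 ± 0.13, 2.76 ± 0.14 and 2.26 ± 0.17.

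The promoters of the SRF list were read from RefSeq (GRCm38.p6), 250 bases before to 50 after each start, for the CArG box, the site bound by serum response factor (CC, 6 letters of A or T, GG, both strands). It was in 9 of 30 windows (30%), against 1.32% of 14734 windows of genes tested and 1.63% of all 32851. These 30 windows cover 21 genes matched by their listed symbol and further genes matched by an alias. In the smooth muscle list the box was in 0 of 7 windows. The windows of Actg1, at chr11:120348446-120348745 on the minus strand, and Cnn2, calponin 2, at chr10:79988350-79988649 on the plus strand, show it in capitals. Cnn2 fell by 1.0.
Actg1: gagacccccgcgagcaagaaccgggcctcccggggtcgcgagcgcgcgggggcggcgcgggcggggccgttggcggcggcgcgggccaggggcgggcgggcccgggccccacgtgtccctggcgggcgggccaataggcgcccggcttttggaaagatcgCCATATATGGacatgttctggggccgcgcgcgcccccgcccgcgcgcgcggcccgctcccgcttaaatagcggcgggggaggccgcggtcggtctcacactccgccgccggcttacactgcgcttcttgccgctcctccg
Cnn2: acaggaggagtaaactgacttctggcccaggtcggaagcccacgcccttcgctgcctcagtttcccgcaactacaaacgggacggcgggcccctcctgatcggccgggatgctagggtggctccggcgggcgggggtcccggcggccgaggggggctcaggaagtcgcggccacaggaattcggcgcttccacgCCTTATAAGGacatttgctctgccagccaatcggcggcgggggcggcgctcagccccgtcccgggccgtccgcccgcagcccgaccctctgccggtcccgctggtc
Acta2, Flna, Myh9 and Actn1 had no match in their windows, which says only that these letters are not there.

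Of 24 genes listed for YAP, TEAD and their targets, 15 were lower and 4 higher. Ctgf and Cyr61, secreted CCN proteins, stood at 260.4, 169 and 225 and 93.8, 124 and 137 CPM in lung against 1585, 1432 and 1707 and 968, 976 and 1017 in fibroblasts. Axl, a receptor kinase, fell by 3.21, and Nt5e, the ectonucleotidase CD73, rose by 3.48 ± 0.16. The list of RhoA signalling and cytokinesis held 10 lower, 4 higher and 4 not called of 18, with a highest difference of 0.58. With library totals 8 of them were lower and 7 higher. Ect2, the exchange factor that loads RhoA with GTP at cytokinesis, stood at 13.3, 12.5 and 15.5 CPM against 84.4, 94.9 and 90.8 (-2.71 ± 0.10). Rhoa stood at 535, 446 and 479 CPM against 579.8, 569.9 and 578: its difference of -0.24 ± 0.08 passed, but the call was lost without any 1 library other than lung library 1 (-0.26 to -0.18), and with library totals the value was 0.07. Diap1, the gene of the formin mDia1, stood at 69.9, 54.9 and 56.1 against 66.3, 62.1 and 63.6 and did not pass (-0.09, or -0.21 and -0.28 and past the threshold without lung library 1 and against the fibroblasts of experiment 1), while Diap3, a formin of dividing cells, fell by 3.93.

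Genes of cell division were lower in lung almost without exception. Of 40 genes of G2 and mitosis, 39 were lower, 37 by at least 4-fold, with a median of -2.93. Foxm1, on chr6:128362967-128376146, stood at 18.2, 16.4 and 16.8 CPM in lung and 163, 164 and 168 in fibroblasts, a difference of -3.27 ± 0.07 (adjusted p = 3.5e-08). Plk1, the polo kinase, fell by 3.77, Kif20a, a kinesin of the midzone, by 3.87 and Hmmr, a spindle protein, by 3.87. Top2a, topoisomerase II alpha, stood at 55.8, 53.8 and 55.9 CPM against 514, 510.1 and 507, and Mki67, the antigen Ki-67, at 78.8, 92.3 and 90.5 against 425, 354 and 389. The lungs were not at 0 for any of these.

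Pttg1, securin, was the 1 member higher in lung, at 26.3, 35.8 and 36.7 CPM against 8.65, 8.69 and 11 (1.80 ± 0.17). In the Het libraries its difference was 0.76 and did not pass (adjusted p = 0.0523). Of 35 genes of G1/S and replication, 34 were lower (median -2.20), from Ccne1, cyclin E1, by 3.83 and Rrm2, of ribonucleotide reductase, by 3.50, to Rfc3 by 0.67. E2f2, an E2F factor, rose by 2.31 ± 0.16. Among brakes on the cycle, Cdkn2a, the Ink4a/Arf locus, fell by 5.51 from 25.5, 26.1 and 33.8 CPM and Cdkn1a (p21) by 1.91, while Cdkn2c (p18) and Cdkn1b (p27) rose by 1.97 ± 0.10 and 0.82 ± 0.10.

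The promoters of the G2 and mitosis list were read for the cell cycle genes homology region, or CHR (TTTGAA, both strands), where DREAM and B-MYB with FOXM1 complexes bind. It was in 27 of 36 windows of 33 matched genes (75%), against 12.2% of windows of genes tested and 17.9% of all windows. In the G1/S list it was in 5 of 34 (14.7%). Windows of 3 genes that fell and of Pttg1 are shown, with the motif in capitals: Plk1 at chr7:122159185-122159484 (plus strand), Top2a at chr11:99024140-99024439 (minus), Hmmr at chr11:40733388-40733687 (minus) and Pttg1 at chr11:43425932-43426231 (minus), where these letters are not in the window. The other matched genes of the list without these letters in their windows were all lower in lung, so the absence did not set Pttg1 apart.
Plk1: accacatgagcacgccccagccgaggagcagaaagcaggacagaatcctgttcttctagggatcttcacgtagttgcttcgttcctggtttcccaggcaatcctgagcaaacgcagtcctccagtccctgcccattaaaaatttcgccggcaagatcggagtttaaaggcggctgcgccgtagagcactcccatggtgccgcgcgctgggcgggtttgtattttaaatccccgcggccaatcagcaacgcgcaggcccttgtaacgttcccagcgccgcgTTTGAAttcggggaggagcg
Top2a: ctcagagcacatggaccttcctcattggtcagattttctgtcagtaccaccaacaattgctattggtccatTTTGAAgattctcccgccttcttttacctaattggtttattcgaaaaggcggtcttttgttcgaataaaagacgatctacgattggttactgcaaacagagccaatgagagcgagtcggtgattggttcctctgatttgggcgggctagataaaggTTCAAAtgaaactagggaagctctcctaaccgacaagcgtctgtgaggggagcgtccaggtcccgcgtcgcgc
Hmmr: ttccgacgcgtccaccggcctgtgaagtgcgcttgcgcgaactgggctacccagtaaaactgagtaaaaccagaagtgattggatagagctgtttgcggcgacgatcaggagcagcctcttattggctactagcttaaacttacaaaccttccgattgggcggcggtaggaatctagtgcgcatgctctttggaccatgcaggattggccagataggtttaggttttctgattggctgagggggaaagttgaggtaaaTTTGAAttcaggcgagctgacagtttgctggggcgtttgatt
Pttg1: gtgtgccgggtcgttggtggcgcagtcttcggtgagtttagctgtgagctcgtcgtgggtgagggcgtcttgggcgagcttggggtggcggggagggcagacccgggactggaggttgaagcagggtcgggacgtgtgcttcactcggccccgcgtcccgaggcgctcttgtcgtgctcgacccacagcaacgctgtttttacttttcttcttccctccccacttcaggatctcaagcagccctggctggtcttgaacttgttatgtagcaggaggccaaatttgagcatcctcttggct
A CCAAT box, the site of NF-Y (CCAAT, both strands), was in 77.8% of the G2 and mitosis windows. It was in 61.8% of G1/S, 83.3% of cholesterol synthesis, 40% of SRF and 71.4% of 7 smooth muscle windows. Of windows of genes tested, 36.7% held it.

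Growth genes were lower in the same direction. All 20 genes of ribosome biogenesis and translation were lower (median -2.11): Npm1, nucleophosmin, by 2.30, Nop56 by 2.48 and Myc, which drives many of them, by 3.67, from 140.4, 121 and 134 CPM to 9.84, 11.6 and 9.53. Of 33 ribosomal protein genes, 32 were lower with a smaller median of -0.76, and with library totals 22 were lower and 1 higher. Of 18 genes often used to normalise, 15 were lower and 1, B2m, higher. Gapdh stood at 323, 416 and 407 CPM against 2776, 2431 and 2907 and Actb at 1931, 2315 and 2009 against 5142, 4354 and 5353. Hprt and Ywhaz did not pass, at -0.23 ± 0.10 and -0.09 ± 0.08, and their direction rested on the setting: with library totals they were 0.08 and 0.22, the latter past the threshold as higher, and against the WT fibroblasts of experiment 1 both passed as lower (-0.39 and -0.34). With a replicate block Hprt passed at -0.24.

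**Figure D4:**
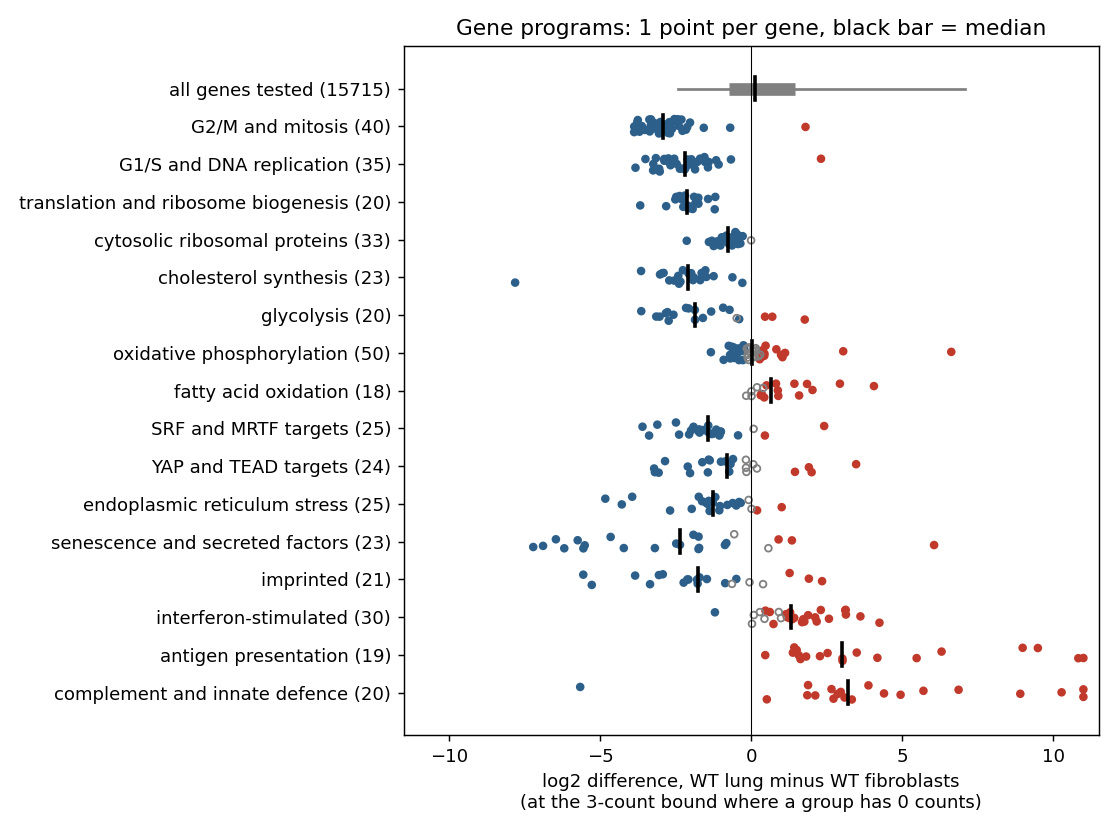
log2 difference of lung over fibroblasts for each gene of 16 programs (points, filled where called, open where not; black bar, median), with all 15715 genes tested on top as the median, the middle of the distribution (thick bar, 25th to 75th percentile) and its 5th to 95th percentile (thin line). Genes at 3 counts or fewer in a group are drawn at their count bound or count ratio, and values past 11 at 11. Division, ribosome biogenesis and cholesterol lists lie to the left, antigen presentation and complement to the right, and oxidative phosphorylation around 0.

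Metabolism split by pathway. Of 20 glycolytic genes 16 were lower (median -1.86): Pkm, pyruvate kinase, by 3.03, Slc2a1, the glucose carrier GLUT1, by 3.14, and Slc16a3, the lactate exporter, by 3.64. Ldhb, the lactate dehydrogenase subunit of oxidative tissue, rose by 1.78 ± 0.23, while Ldha fell by 2.07. Fatty acid oxidation went up, with 13 of 18 higher and none lower (median 0.67). Acaa2, of the last step of the cycle, rose by 2.03 ± 0.09. Ppargc1a, a coactivator of mitochondrial genes, stood at 6.77, 5.86 and 5.42 CPM against 0.119, 0.803 and 0.128. Oxidative phosphorylation as a list was even here, 16 higher and 18 lower of 50, but the split rested on the setting. The counts were 28 and 9 with library totals and 23 and 12 with upper quartile scaling. Against the WT fibroblasts of experiment 1 they were 26 and 12. In the Het libraries the list held 9 higher and 12 lower. Its tissue isoforms stood apart: Cox4i2, the lung form of a cytochrome oxidase subunit, stood at 75.9, 79.2 and 89.3 CPM against 0.446, 1.18 and 0.834, and Cox7a1, the form of heart and muscle, rose by 3.05 ± 0.54.

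All 23 cholesterol genes were lower in lung, with a median of -2.08. Lss, lanosterol synthase, fell by 3.64. Srebf2, the factor that drives the list, fell by 1.48. Fatty acid synthesis was mixed: Fasn fell by 1.71 and Elovl6, an elongase, by 4.09, while Scd1, a desaturase, rose by 1.18 ± 0.16 and its relative Scd2 fell by 1.41.

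Detoxifying enzymes were higher in 21 of 26 (median 5.52 (5.36 at the bounds)). Ces1d, a carboxylesterase, stood at 548, 519 and 574 CPM with 2 counts in the fibroblasts, and Aldh1a1, an aldehyde dehydrogenase, rose by 6.50 ± 0.48. Cyp1b1 went against the list and fell by 5.71. Ion and water transport was higher in 15 of 17: the sodium channel subunits Scnn1b and Scnn1g, which clear fluid from the airspace, were at least 1862-fold and 4774-fold higher. Among antioxidants, Sod3, the extracellular superoxide dismutase, rose by 2.90 ± 0.13 and Cat, catalase, by 1.91 ± 0.08. Slc7a11, the cystine carrier, and Txnrd1, thioredoxin reductase, fell by 4.30 and 2.43.

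Genes of embryonic growth were high in the fibroblasts. Hmga2, a chromatin protein of embryonic mesenchyme at chr10:120361275-120476469, stood at 1.74, 1.51 and 1.31 CPM in lung and 542, 484 and 773 in fibroblasts, a difference of -8.61 ± 0.25. The mRNA-binding Igf2bp1, Igf2bp2 and Igf2bp3 fell by 4.36, 3.20 and 3.48. Of 21 imprinted genes, 15 were lower and 3 higher (median -1.77). Igf2, the fetal growth factor, stood at 35.5, 109 and 63.5 CPM against 2142, 3744 and 2187, its neighbour H19 at 62.2, 444 and 211 against 2804, 4747 and 2719, and Dlk1 at 6.29, 23.5 and 9.93 against 608, 852 and 404. Nnat and Sgce rose, by 2.35 ± 0.12 and 1.27 ± 0.10. Exons of Igf2 overlap Igf2os and those of H19 hold Mir675. Of the fetal growth list, Mycn and Arid3b rose, by 2.50 ± 0.28 and 1.51 ± 0.17. Bcat1, a branched-chain aminotransferase, Inhba, the activin A subunit, Il1rl1, the receptor for IL-33, and Tnmd, tenomodulin of tendon, were among the 15 lowest well-expressed genes, with Bcat1 at 267, 241 and 244 CPM in fibroblasts and 0.523, 0.378 and 0.564 in lung.

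Signals between cells were divided by ligand. Of 27 WNT ligands and antagonists 15 were higher and 9 lower. Wnt7b, an epithelial ligand, rose by 6.13 ± 0.25 and Wnt3a by 8.53 ± 0.37. The antagonist genes Sfrp1 and Dkk2 fell by 4.26 and 4.81. Fgf1 rose by 7.39 ± 0.21 to 181, 157 and 165 CPM, and the receptors parted: Fgfr4, Fgfr3 and Fgfr2 rose by 8.71 ± 0.27, 5.20 ± 0.16 and 1.51 ± 0.12, while Fgfr1 fell by 1.34. Shh, the hedgehog ligand of the airway epithelium, stood at 24.2, 29 and 30.7 CPM against 0, 0.115 and 0.16. Hhip, which binds it, rose by 3.96 ± 0.26, and Gli3 fell by 2.53.

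Vegfa, the main growth factor of endothelium, stood at 527, 535 and 521 CPM against 152, 119 and 117 (2.03 ± 0.11). Pdgfb rose by 5.70 ± 0.11 and Pdgfc fell by 4.62. In the BMP axis 10 of 26 were higher and 11 lower (10 and 6 with library totals). Bmp6 rose by 4.50 ± 0.24, and the antagonist genes Fst and Grem1 fell by 6.74 and 4.56. Of 18 Notch genes 15 were higher: Dll4, the endothelial ligand, stood at 75.2, 69.7 and 71 CPM against 0, 0.115 and 0, Notch4 rose by 6.60 ± 0.23 and Jag1 fell by 1.68.

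Epas1, the hypoxia factor HIF-2 alpha, stood at 1220.0, 1178 and 1208 CPM against 14.8, 10.4 and 8.98 (6.72 ± 0.21), and Hif1a fell by 1.38. Of 19 clock genes 13 were higher and 3 lower, the latter Arntl (by 1.41), Bhlhe40 (1.32) and Nfil3 (1.27). Hlf and Dbp, outputs of the clock, rose by 6.38 ± 0.12 and 2.82 ± 0.41. The hour of collection is not given in the labels. Of 16 genes that respond to glucocorticoids 10 were higher, with Hsd11b1, which activates the hormone, at 8.50 ± 0.23, while Fkbp5, one of its targets, fell by 2.91.

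Immune sensing and stress programs faced opposite ways. All 19 antigen presentation genes were higher (median 3.02), from Cd74, the invariant chain, at 473, 397 and 519 CPM against 0.505, 0.143 and 0.0963, to B2m by 0.47 ± 0.09. H2-Aa, a class II chain, was at least 6331-fold higher. Of 30 interferon-stimulated genes 23 were higher and 1, Cxcl10, lower by 1.20, a call lost without fibroblast library 1 or 2 (-1.10 and -1.17) and with library totals (-0.89). Against the WT fibroblasts of experiment 1, Cxcl10 differed by -0.07 (adjusted p = 0.887). Of 20 complement and defence genes, 19 were higher, and Masp1, a protease of the lectin pathway, fell by 5.66. Immediate early genes were lower in 12 of 18, with Egr1 at 18, 33.9 and 28.4 CPM against 354, 406 and 309.8 and Egr2 lower by 4.23.

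Of 23 genes of senescence and its secreted factors, 18 were lower in lung (median -2.36). Ccl2 and Ccl7, chemokines for monocytes, stood at 118, 97.6 and 113 and 97.6, 75.6 and 87.6 CPM in fibroblasts and 0.653, 1.21 and 0.939 and 0.588, 0.756 and 0.403 in lung. Csf1, the growth factor of macrophages, fell by 4.16. Cxcl15, a chemokine of lung epithelium, was the highest of its list at 851, 976 and 1183 CPM. Of 24 genes of the p53 list 15 were lower, Trp53 itself by 1.72 and Ccng1 by 2.53. Perp, a protein of epithelial junctions, rose by 3.25 ± 0.73 (2.39 without lung library 2). Of 25 endoplasmic reticulum genes 21 were lower: the chaperone Hspa5 by 1.62, and Asns, asparagine synthetase, and Chac1, which degrades glutathione, by 4.28 and 4.83.

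The same contrast in libraries labelled Het, which share none with those above (3 lungs and 3 fibroblast cultures of experiment 2), called 11503 of 15861 genes (72.5%): 40.5% were higher in lung and 32% lower, and 23.2% and 7.43% were so by at least 4-fold. Of the 3217 genes at least 4-fold higher in WT lung, 3007 were so in Het lung, which is 93.5% of the WT list and 81.8% of the Het list. Of the 1130 at least 4-fold lower, 971 were shared, 85.9% and 82.4%. In Het, Foxm1 differed by -3.14, Eln by 6.99, Col1a1 by -4.17 and Hmga2 by -7.83. For Eln the difference of the Het and WT values was itself past the threshold (interaction 2.94, adjusted p = 0.0477, edgeR's quasi-likelihood test in 12 libraries). In all, 18 genes were called in opposite directions in the 2 comparisons.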

How the data were processed

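RNA of whole lung and of cultured fibroblasts was sequenced by the submitters, and the table used here holds the raw read counts per gene that the authors deposited. Per the submitters' processing notes, TopHat2 2.0.14 with Bowtie2 2.2.6 and featureCounts 1.4.6 of Subread were used on mm10, while the annotation and the strand setting are not given in the sources used here. Every column of the table matched a labelled library, and 6 of 27 libraries were compared.

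Genes passing edgeR's filterByExpr were tested with edgeR 4.0.16 in R 4.3.3: trimmed mean of M values, glmQLFit with robust estimation, glmQLFTest, and Benjamini-Hochberg adjustment over all genes tested, with a threshold of 0.05. No block or covariate was used. The standard error of a difference is its absolute value divided by the square root of the F statistic. Genes are matched by symbol as the table gives them, and coordinates and lengths come from GENCODE M21 on GRCm38. Exon overlap is not limited to the genes where it is named above. Exons of Foxm1 overlap those of Tex52 on the same strand. On the other strand Col4a1 overlaps Col4a2, Rhoa overlaps Tcta and Shox2 overlaps Rsrc1, among others. A gene at 0 counts in a group is set against a floor of 3 counts over that group, and both bounds and floors cover counting error only. For the medians in brackets, other genes at 3 counts or fewer in a group are taken at their count ratio.

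The members and gene lists were chosen with earlier results of these data known. Genes were named by a rule: Foxm1, Ect2, Rhoa and Diap1; the 15 highest and 15 lowest differences among called, well-expressed genes (average log2 CPM of at least 5) whose groups do not overlap; the 12 highest levels per length in a group; up to 4 members per list by level, by difference each way and against the list's direction; and all Hox, reference, actin and sex-linked genes. Pdpn, Cd68, Cx3cr1, Emr1, Krt4, Krt13 and Rn45s were named after their values were seen. Alternatives were another scaling, test, filter or set of libraries, a replicate block, and each library left out in turn. Libraries of other genotypes were used only where Het is named.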

Additional observations from a re-analysis of the deposited data

Results flagged for a closer look

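For 9 of the genes named above, the lung minus fibroblast difference of the Het libraries departed from that of the WT libraries, by an interaction term in edgeR's quasi-likelihood test over 12 libraries (3 a group, adjusted over 16364 genes, of which 184 passed). A positive term means a larger difference in Het. Among lung mesenchyme and matrix genes, Eln had a term of 2.94 (adjusted p = 0.0477, with 4.06 in WT and 6.99 in Het) and Mfap4 one of 1.81 (0.0263). Trpc6, of the pericyte list, had a term of 1.60 (0.0254). Msln, the mesothelial gene, had a term of 2.62 (adjusted p = 0.00457), Cxcl15, the epithelial chemokine, one of 4.07 (0.0488), the growth factor gene Pdgfb one of 1.61 (0.0215) and Cd68, of macrophages, one of 1.56 (0.0454). The terms of Cdh5, the endothelial cadherin, and Wnt7b, the epithelial WNT ligand, were -2.73 (adjusted p = 0.0254) and -2.81 (0.0155), and both genes stayed higher in lung in WT and in Het.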

How the results depend on the processing

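The count of genes called stayed within 1.5 times 12480 in every alternative except edgeR's glmTreat against a 2-fold change, which called 6320, 3988 of them higher in lung and 2332 lower. The higher share of the calls was 54.0% with trimmed means, 65.4% with library totals and 59.7% with upper quartile scaling (7426 higher, 5020 lower), so the split rests on the scaling. DESeq2 called 12948. Leaving out each library in turn gave 11750 to 12736 calls, 6355 to 6895 of them higher and 5395 to 5841 lower. With the replicate number as a block 12172 were called. Correlations of same-numbered deviations were 0.039, 0.002 and -0.019, and those of other pairs ran from -0.037 to 0.036. With 3 libraries a group from different tissues, these values cannot decide whether the numbers mark a pairing. An alternative chosen after seeing the data, without Rn45s and Lars2, called 12484.

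With library totals Diap1 was 0.22, Hprt 0.0791, Pdpn 0.216, Rhoa 0.0656 and Ywhaz 0.216, and with upper quartile scaling Diap1 was 0.0638, Pdpn 0.0629 and Ywhaz 0.05996. Against the fibroblasts of experiment 1, the called fall of Mmp9 (-2.39) became 0.0629 and that of Sparc (-0.31) became 0.192. The call of Sparc was also lost without lung library 2 or 3 or fibroblast library 1 or 2 (-0.33 to -0.25). With upper quartile scaling and with library totals Sparc was -0.16 and -0.005 and did not pass. Emr1 was -0.0181 with the replicate block. With single libraries left out, Emr1 ran from -0.209 (without lung library 1) to 0.248, Cx3cr1 from -0.0583 (without fibroblast library 2) to 0.32 and Col4a2 from -0.0672 (without lung library 1) to 0.214. The causes were not tested. Precision is limited by 3 libraries a group, and for genes at 0 by depth.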

Other observations

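Of the 18 genes called in opposite directions in WT and Het, 12 also passed the interaction test. Cotl1, which encodes the actin-binding coactosin-like protein, was higher in WT lung by 1.05 and lower in Het lung (-0.41, interaction -1.46, adjusted p = 0.00184 by edgeR's quasi-likelihood test). Plin2, a coat protein of lipid droplets, differed by 0.41 in WT and -0.46 in Het (interaction -0.85, adjusted p = 0.0483). Lrrtm3, a synaptic membrane protein, ran the other way, at -1.98 in WT and 4.14 in Het (interaction 6.13, adjusted p = 0.00542), and Map2, a neuronal microtubule protein, at -1.32 and 0.72 (interaction 2.06, adjusted p = 0.0254). Msx1, a homeobox factor, and Penk, the proenkephalin gene, were also called oppositely, and their interaction terms missed the threshold (adjusted p = 0.0506 and 0.051). These genes were named after their values were seen.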
